A study of Mus musculus with 6 samples.

Results

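The nuclear-encoded subunits of respiratory complexes II to V were described in chondrocytes of the mouse, which build and maintain cartilage. The members were all rows of the deposited gene table whose symbol begins as one of these subunit families does (Sdha to Sdhd, Uqcr, Cyc1, Cox4 to Cox8 and Atp5). The rule found 47 of 26969 rows, of which 4 belong to complex II, 9 to complex III, 17 to complex IV and 17 to complex V. Of the 47, 46 are protein-coding genes and Cox6c2 is annotated as a processed pseudogene, an intronless copy of a messenger RNA that was inserted back into the genome. All 47 passed the filter on low counts. They were chosen by symbol, from a table in which no row was without counts. Cox7b2 and Cox8c, whose symbols the rule would also match, had no row under these names and were not analysed here.

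Poly(A)-selected RNA of 6 wild-type chondrocyte samples was sequenced as paired ends, 3 libraries called mAC_Mito and 3 called mAC. The title of the series names mitochondria from osteocytes given to chondrocytes. The sample labels contradict each other, since the libraries described as mAC_Mito carry vehicle as their title and treatment, and those described as mAC carry mitochondria. The groups are named here after the description, differences are given as mAC_Mito minus mAC, and none of them is read as an effect of mitochondria. Neither the age of the animals, the part of the skeleton nor the time after treatment is stated in the labels, which also do not say whether the replicates were separate cultures or animals. P-values therefore measure the spread between these libraries, which may be technical. The extraction protocol speaks of RNA of an adipose type although the source is given as chondrocytes.

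The respiratory chain passes electrons to oxygen and uses the energy to pump protons out of the mitochondrial matrix. Complex II oxidises succinate and is also an enzyme of the citric acid cycle, complex III passes electrons to cytochrome c, complex IV (cytochrome c oxidase) passes them to oxygen, and complex V (ATP synthase) lets the protons flow back to make ATP. Complex II is made of nuclear gene products alone, whereas complexes III, IV and V combine nuclear subunits with subunits encoded by mitochondrial DNA. Several nuclear subunits of complex IV exist as paralogs, a ubiquitous isoform and an isoform typical of heart and skeletal muscle, lung or testis. Chondrocytes live in a tissue without blood vessels and are known for a high rate of glycolysis.

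A first set of sequences shows how far 3 genes that encode the same subunit differ in their bases. Atp5g1, Atp5g2 and Atp5g3 lie on chromosomes 11, 15 and 2 and all encode subunit c, the subunit that repeats to form the proton-driven ring of ATP synthase. The last 225 coding bases, 75 codons, encode the same residues in all 3 genes. Capitals mark the 57 positions at which the 3 sequences are not all alike.
Atp5g1: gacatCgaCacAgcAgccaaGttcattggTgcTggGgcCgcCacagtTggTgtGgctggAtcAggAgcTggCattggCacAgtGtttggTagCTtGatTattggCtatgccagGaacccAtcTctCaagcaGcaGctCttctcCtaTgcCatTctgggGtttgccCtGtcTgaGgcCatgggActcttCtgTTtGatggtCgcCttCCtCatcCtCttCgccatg
Atp5g2: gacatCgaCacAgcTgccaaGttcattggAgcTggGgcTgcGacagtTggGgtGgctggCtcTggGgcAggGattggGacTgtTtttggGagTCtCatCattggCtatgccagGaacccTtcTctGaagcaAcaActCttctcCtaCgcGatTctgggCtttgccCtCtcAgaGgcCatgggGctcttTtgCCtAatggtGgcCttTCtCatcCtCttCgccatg
Atp5g3: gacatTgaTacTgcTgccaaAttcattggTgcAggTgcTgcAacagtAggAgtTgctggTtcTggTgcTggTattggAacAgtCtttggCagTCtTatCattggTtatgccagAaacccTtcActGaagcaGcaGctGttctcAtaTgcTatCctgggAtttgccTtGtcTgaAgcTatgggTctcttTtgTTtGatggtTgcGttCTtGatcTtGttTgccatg
Within this stretch Atp5g1 and Atp5g2 were 84.9% identical, Atp5g1 and Atp5g3 80% and Atp5g2 and Atp5g3 78.7%. The longest run without a difference was 20 bases between Atp5g1 and Atp5g2, 11 between Atp5g1 and Atp5g3 and 8 between Atp5g2 and Atp5g3. The Cox6c2 transcript, by contrast, matched that of Cox6c at 224 of 231 bases, or 97%. The counts of Cox6c and Cox6c2 are uncertain, because the treatment of reads that fit both genes is not given in the sources used here. The table also held 8 rows named as pseudogenes of members, with up to 906 counts in a library. The counts of those members are uncertain for the same reason.

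A second set shows the start regions of 4 genes that the results below turn on, the ubiquitous Cox6a1 and Cox8a, the muscle isoform Cox8b and the stalk subunit Atp5e. Each window runs from 250 bases before the annotated start to 30 bases after it, from RefSeq on build GRCm38.p6. The windows are chr5:115348929-115349208 for Cox6a1, chr19:7217587-7217866 for Cox8a, chr7:140900417-140900696 for Cox8b and chr2:174464072-174464351 for Atp5e, all on the minus strand. Capitals mark matches to motif letters searched on both strands, which were CCGGAAG (the core bound by GABPA, a factor known to act on respiratory genes), those of NRF1, nuclear respiratory factor (the first 10 capitals in the Cox6a1 window), AAGATGGC (YY1) and TATAAA (the TATA box). The reverse complement of CCGGAAG is CTTCCGG.
Cox6a1: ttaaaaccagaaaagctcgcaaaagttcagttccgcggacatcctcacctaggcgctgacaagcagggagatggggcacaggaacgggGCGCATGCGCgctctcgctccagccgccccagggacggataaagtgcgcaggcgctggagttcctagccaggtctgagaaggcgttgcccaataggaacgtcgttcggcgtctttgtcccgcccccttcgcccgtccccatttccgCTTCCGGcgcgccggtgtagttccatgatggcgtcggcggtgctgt
Cox8a: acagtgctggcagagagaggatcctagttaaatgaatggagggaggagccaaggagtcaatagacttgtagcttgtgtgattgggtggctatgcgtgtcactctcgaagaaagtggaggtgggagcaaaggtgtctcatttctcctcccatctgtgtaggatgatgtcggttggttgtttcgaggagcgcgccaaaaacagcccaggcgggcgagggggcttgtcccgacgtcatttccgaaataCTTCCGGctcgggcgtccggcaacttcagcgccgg
Cox8b: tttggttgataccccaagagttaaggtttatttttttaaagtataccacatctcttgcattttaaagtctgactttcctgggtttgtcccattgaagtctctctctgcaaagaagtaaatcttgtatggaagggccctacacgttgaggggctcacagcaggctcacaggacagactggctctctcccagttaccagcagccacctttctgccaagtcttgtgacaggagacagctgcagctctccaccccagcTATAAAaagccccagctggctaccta
Atp5e: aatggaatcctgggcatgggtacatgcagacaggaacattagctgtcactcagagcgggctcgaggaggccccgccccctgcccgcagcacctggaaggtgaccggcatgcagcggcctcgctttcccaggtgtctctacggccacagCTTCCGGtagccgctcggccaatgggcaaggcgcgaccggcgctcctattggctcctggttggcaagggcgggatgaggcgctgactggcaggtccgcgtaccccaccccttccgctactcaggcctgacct
The Cox6a1 window held the NRF1 letters 162 bases before the start and the GABPA letters 16 bases before it. The GABPA letters began 5 bases before the start of Cox8a and 102 bases before that of Atp5e. Cox8b held none of the first 3 motifs, and its TATAAA began 4 bases past the annotated start. CG dinucleotides numbered 29 in the Cox6a1 window, 17 for Cox8a, 1 for Cox8b and 20 for Atp5e.

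RefSeq windows were found for 35 of the 47 members, 38 windows in all. The GABPA letters stood in 13 of the 38 (34.2%), against 8.45% of all 32851 windows of the same length. The NRF1 letters stood in 3 (7.89%, against 0.91% of all windows), the YY1 letters in 2 (5.26%, against 2.29%) and TATAAA in 3 (7.89%, against 13.1%). The median window of the members that are not tissue isoforms held 17 CG dinucleotides, against 6 in all windows. Of the tissue isoforms, Cox6b2, Cox7a1 and Cox8b had a window, and none of these 3 held the GABPA, NRF1 or YY1 letters. These are matches of letters and not binding sites. The GABPA and NRF1 letters themselves contain CG, and the windows compared were not matched for CG content. The part of CG content in these shares was not tested.

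Total counts were 60151766 to 63700612 in the mAC_Mito libraries and 59116068 to 68378213 in the mAC libraries, and 21437 to 22107 genes had at least 1 count. Genes of the mitochondrial genome took 5.66%, 2.96% and 3.44% of counts in mAC_Mito 1, 2 and 3 and 7.38%, 4.77% and 3.18% in mAC 1, 2 and 3. The chondrocyte markers were present, with summed levels of 2497 to 3560 FPKM in mAC_Mito libraries and 2589 to 3113 FPKM in mAC libraries. FPKM divides a count by the length of the gene model and by library size. Markers of other cells were also detected. Skeletal muscle markers (23 genes) summed to 101.5 to 123.9 FPKM in mAC_Mito and 69.2 to 123.8 FPKM in mAC, and adipocyte markers (11) to 99.4 to 120.8 FPKM in mAC_Mito and 72.0 to 114.8 FPKM in mAC. Macrophage and leukocyte markers (14) summed to 76.5 to 123 FPKM in mAC_Mito and 69.8 to 86.7 FPKM in mAC, and heart muscle markers (7) to 3.96 to 5.54 FPKM in mAC_Mito and 3.36 to 5.45 FPKM in mAC. Every row of the table had at least 1 count, so no listed gene with a row was at 0 in all libraries. Myl7 of the heart muscle list and Ucp1 of the adipocyte list had no row. The part of such cells in the levels below was not tested, and in bulk RNA fewer cells of a type cannot be told apart from less RNA per cell.

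No subunit gene passed the test of a difference between the groups. None of the 47 passed an adjusted p of 0.05 in edgeR's quasi-likelihood test with Benjamini-Hochberg adjustment over 17645 genes, where 2 genes, 0.0113%, did, and the lowest adjusted p among the members was 0.99992. None had an unadjusted p under 0.05 in edgeR either, against 3.19% of all genes tested. Neither DESeq2 nor limma called any at an adjusted p of 0.05. The unadjusted p of Cox6b2 was 0.033 with limma on log2(FPKM + 1) and 0.038 with limma on log2(FPKM + 0.1). In edgeR the log2 fold changes were above 0 for 28 members and below 0 for 19. Their median was 0.01 (all genes tested, 0.002). The median size without sign was 0.048, against 0.118 for all genes tested and 0.081 for genes with at least 5 CPM. CPM are counts scaled to library size with its TMM factor, and not to gene length. By complex the median log2 fold changes were -0.04 for complex II, 0.01 for complex III, 0.03 for complex IV and 0.00 for complex V.

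**Figure D1:**
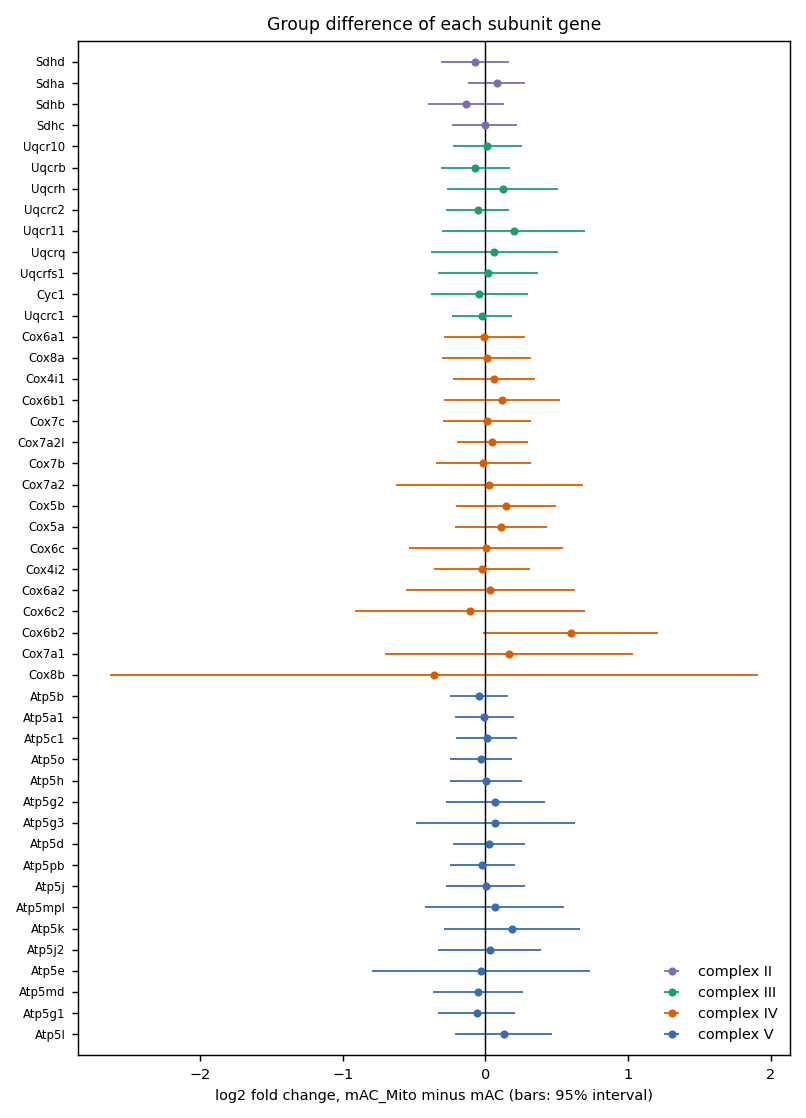
Log2 fold change of each of the 47 subunit genes (points, mAC_Mito minus mAC) with its 95% interval from edgeR (bars), grouped and coloured by complex, 3 libraries per group. Every interval includes 0, and the widest are those of the muscle isoforms Cox8b, which reaches to -2.63 and 1.91, and Cox7a1.

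How large a difference the libraries left possible is given by the intervals. For the 43 members with at least 5 CPM on average, the 95% intervals ran between -0.79 and 0.73 at their extremes, so all 43 lay within a 2-fold change in either direction. Within a change of 0.5 on the log2 scale, 1.41-fold, lay the whole interval of 32 of them, and within 0.25, 1.19-fold, that of 5. The median half-width was 0.31, and for all genes of at least 5 CPM it was 0.28. These intervals are not adjusted for the number of genes tested. They show which differences 3 libraries per group left possible, and not the smallest difference that the test could have called.

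The summed level of each complex overlapped between the groups. Complex II summed to 180.2 ± 10.7 FPKM in mAC_Mito and 182.6 ± 26.3 FPKM in mAC (SD, n = 3 each), and complex III to 527 ± 22.5 FPKM in mAC_Mito and 514 ± 104 FPKM in mAC. Complex IV summed to 1199 ± 63.9 FPKM in mAC_Mito and 1162 ± 243 FPKM in mAC, and complex V to 1104 ± 69.9 FPKM in mAC_Mito and 1090 ± 193 FPKM in mAC. In every complex the spread was wider among the mAC libraries than among the mAC_Mito libraries. The 47 members together summed to 2821, 3101 and 3110 FPKM in mAC_Mito 1, 2 and 3 and to 2318, 3129 and 3398 FPKM in mAC 1, 2 and 3. The lowest and the highest sum were thus both in mAC.

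In complex II, Sdha, the flavoprotein that binds succinate, stood at 46.4, 52.0 and 53.0 FPKM in mAC_Mito and at 41.7, 49.3 and 50.6 FPKM in mAC. The groups overlapped (log2 fold change 0.08, 95% interval -0.12 to 0.28). Sdhb (chr4:140961203-140979193, plus strand, build GRCm38) carries the iron-sulphur clusters and had the lowest p of the 43 members with at least 5 CPM. It was measured at 26.8, 32.7 and 30.05 FPKM in mAC_Mito and 26.4, 32.1 and 38.9 FPKM in mAC, where mAC 3 was above the other 5 libraries (log2 fold change -0.14, interval -0.40 to 0.13, unadjusted p = 0.276, adjusted p = 0.99992, edgeR). Sdhc and Sdhd anchor the enzyme in the inner membrane. Sdhd, the most abundant of the 4, was at 71.1, 73.1 and 78.8 FPKM in mAC_Mito and 63.4, 83.7 and 85.4 FPKM in mAC, with all 3 mAC_Mito libraries between the mAC values. Sdhc averaged 25.5 FPKM over the 6 libraries.

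In complex III the catalytic subunits are Cyc1, which carries the cytochrome c1 haem, and Uqcrfs1, the Rieske iron-sulphur protein. Cyc1 was at 27.2, 33.3 and 33.1 FPKM in mAC_Mito and 22.5, 35.5 and 37.6 FPKM in mAC. Uqcrfs1 was at 31.6, 46.6 and 38.7 FPKM in mAC_Mito and 29.0, 38.1 and 47.1 FPKM in mAC. In both genes mAC 1 was the lowest library and mAC 3 the highest. The core subunits Uqcrc1 and Uqcrc2 were among the steadiest members, with a highest library 1.15 and 1.19 times the lowest after TMM scaling.

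The 5 small subunits of complex III did not move alike. Uqcr10, at 102.2, 99.1 and 101.5 FPKM in mAC_Mito and 81.7, 102.5 and 113.5 FPKM in mAC, and Uqcrb, at 102.8, 87.1 and 101.2 FPKM in mAC_Mito and 95.6, 104.3 and 102.4 FPKM in mAC, varied little. Uqcr11 (chr10:80402997-80406830, minus strand) was at 48.9, 53.3 and 49.8 FPKM in mAC_Mito and at 25.9, 44.4 and 62.2 FPKM in mAC. Its mAC_Mito values lay close together inside the mAC range, in which the highest library was 2.15 times the lowest on the CPM scale (log2 fold change 0.20, interval -0.30 to 0.70). Uqcrh and Uqcrq also had their lowest value in mAC 1 and their highest in mAC 3. The 9 complex III members gave log2 fold changes between -0.07 and 0.20, and the lowest unadjusted p was 0.397.

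Among the ubiquitous subunits of complex IV the most abundant was Cox6a1, a small subunit near the dimer interface of the enzyme, at 262.4, 227.7 and 270.7 FPKM in mAC_Mito and 216.3, 295.7 and 245.1 FPKM in mAC. Cox8a followed with 190.8, 183.5 and 203.5 FPKM in mAC_Mito and 142, 226.3 and 201.1 FPKM in mAC. Cox4i1, the largest nuclear subunit and a site of regulation by ATP, was at 126.6, 152.4 and 154.1 FPKM in mAC_Mito and 106.4, 139.6 and 165.5 FPKM in mAC. On the FPKM scale mAC 1 was lowest in each of these 3 genes and the mAC_Mito values lay inside the mAC range, whereas after TMM scaling the lowest library of Cox6a1 was mAC_Mito 2. Cox7b, an X-linked subunit, was lowest in mAC 1 and highest in mAC 3, with 81.6, 96.98 and 92.8 FPKM in mAC_Mito and 65.2, 92.9 and 114 FPKM in mAC. The 10 ubiquitous subunits gave log2 fold changes of -0.01 to 0.14, 8 of them above 0, with a lowest unadjusted p of 0.388.

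The tissue isoforms of complex IV stood far below their partners. Cox4i2, an isoform of lung and other oxygen-responsive tissue, made up 5.57 ± 0.79% of the summed FPKM of Cox4i1 and Cox4i2 in mAC_Mito and 5.88 ± 0.47% in mAC (SD, n = 3 each). Its levels were 8.74, 8.44 and 8.08 FPKM in mAC_Mito and 6.81, 9.33 and 9.36 FPKM in mAC. Cox6a2, the heart and muscle isoform, made up 2.504 ± 0.66% of its pair in mAC_Mito and 2.48 ± 0.38% in mAC, with levels of 8.86, 4.72 and 6.13 FPKM in mAC_Mito and 6.39, 7.43 and 5.27 FPKM in mAC. Cox7a1, another muscle isoform, made up 0.707 ± 0.158% of the Cox7a family (Cox7a1, Cox7a2 and Cox7a2l) in mAC_Mito and 0.659 ± 0.085% in mAC. Its levels were 1.05, 1.47 and 0.848 FPKM in mAC_Mito and 0.825, 1.04 and 1.08 FPKM in mAC. Cox7a2l held 64.5% of this sum in mAC_Mito and 64.8% in mAC, so the share of Cox7a1 is not comparable with the shares of pairs. None of these shares differed by more than the spread between libraries. Of 22 tested skeletal muscle markers 20 had log2 fold changes above 0 and 2 an unadjusted p under 0.05, both higher in mAC_Mito (2.1% of all genes tested), and their summed level was lowest in mAC 1. All 11 adipocyte markers had log2 fold changes above 0 as well, and their summed level was also lowest in mAC 1. Of these, 2 had an unadjusted p under 0.05 (edgeR), both higher in mAC_Mito. The part of muscle or fat cells in the level of Cox6a2, Cox7a1 and Cox8b was not tested.

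Cox8b, the muscle isoform of Cox8a whose start region is shown above, had 0, 26 and 28 counts in mAC_Mito and 8, 23 and 42 counts in mAC. In mAC_Mito 1 a count of 0 allows up to 3 counts, which concerns counting error only. As a share of Cox8a and Cox8b this was 0%, 0.566% and 0.529% in mAC_Mito and 0.204%, 0.352% and 0.801% in mAC. At these counts the interval of the log2 fold change, -2.63 to 1.91, includes changes of more than 2-fold in either direction.

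Cox6b2 (chr7:4751792-4753094, minus strand, build GRCm38), the testis isoform of the subunit that bridges the enzyme dimer, was the one member whose groups did not overlap, where groups of 8.31% of all genes tested did not overlap in either direction and 3.93% were higher in mAC_Mito. It stood at 1.41, 1.96 and 1.74 FPKM in mAC_Mito and 0.714, 1.304 and 1.28 FPKM in mAC. Its log2 fold change of 0.60 (SE 0.27, interval -0.02 to 1.21) did not pass the test (unadjusted p = 0.0554, adjusted p = 0.99992, edgeR). Without mAC 1, its lowest library, the log2 fold change was 0.40. Its share of the summed FPKM of Cox6b1 and Cox6b2 was 1.251%, 1.29% and 1.22% in mAC_Mito and 0.876%, 0.976% and 0.823% in mAC, so the groups were also apart when set against Cox6b1. Cox6b2 was named after its values were seen as the one member without overlap, and 3 against 3 libraries cannot give an exact permutation p under 0.1, so the share was not tested. Of a list of sperm and testis markers Tnp2 alone was a row of the table, at 0 FPKM in all mAC_Mito libraries and at most 0.0458 FPKM in mAC.

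**Figure D2:**
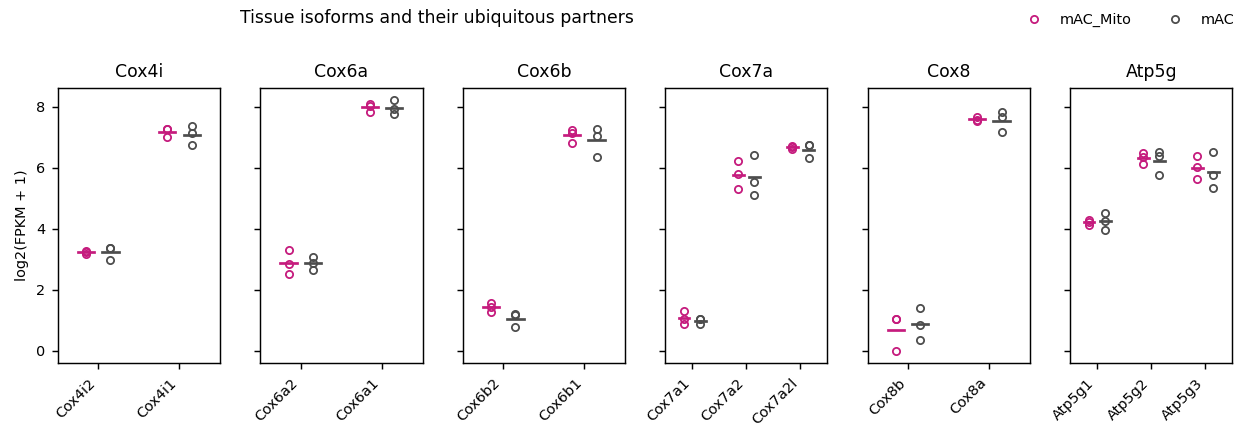
Level of each complex IV isoform family and of the 3 subunit c genes as log2(FPKM + 1), with 1 open circle per library and a line at the group mean (3 mAC_Mito libraries left, 3 mAC libraries right for each gene). The tissue isoforms Cox4i2, Cox6a2, Cox6b2, Cox7a1 and Cox8b lie far below their ubiquitous partners in both groups, and the Cox6b2 values alone are separate between groups.

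Cox7a2 and Cox7a2l form a pair of another kind, since Cox7a2 is the common subunit and Cox7a2l is a related protein that joins complexes III and IV into supercomplexes. Cox7a2 (chr9:79755361-79759878, minus strand) was at 38.2, 74.5 and 55.0 FPKM in mAC_Mito and at 33.5, 45.7 and 84.2 FPKM in mAC, so low and high values occurred in both groups. Cox7a2l stayed at 102.9, 97.5 and 102.7 FPKM in mAC_Mito and 78.7, 105.5 and 106.5 FPKM in mAC. Cox7a2 thus made up 26.9%, 42.9% and 34.7% of the Cox7a family in mAC_Mito and 29.6%, 30.02% and 43.9% in mAC. Its share was high in mAC_Mito 2 and mAC 3 and did not follow the groups.

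In complex V the catalytic head subunits were the steadiest members. Atp5b (chr10:128083273-128090391, plus strand, build GRCm38), the beta subunit that makes ATP, stood at 201.3, 213.5 and 217.6 FPKM in mAC_Mito and 189.8, 222.0 and 233.9 FPKM in mAC, and Atp5a1, the alpha subunit, at 183.7, 184.9 and 183.7 FPKM in mAC_Mito and 162.7, 189.9 and 196.3 FPKM in mAC. After TMM scaling the highest library was 1.11 times the lowest for Atp5b and 1.10 times for Atp5a1. Of the 7452 genes with at least 20 CPM, 4.03% and 2.91% had a narrower spread than these 2 genes. Their log2 fold changes were -0.05 (interval -0.25 to 0.16) and -0.01 (interval -0.21 to 0.20).

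The central stalk held the other extreme. Atp5c1, the gamma subunit that turns inside the head, had a highest library 1.18 times the lowest, and Atp5d, the delta subunit, 1.28 times. Atp5e (chr2:174461072-174464105, minus strand), the small epsilon subunit at the foot of the stalk, was at 16.1, 35.2 and 26.7 FPKM in mAC_Mito and at 15.02, 20.9 and 43.2 FPKM in mAC. Its highest library was 2.58 times its lowest on the CPM scale, a wider spread than in 99.1% of the 7452 genes, although all 3 proteins belong to the same stalk. Most of the 7452 genes have longer mRNAs than Atp5e (421 nt). For the 83 of them with mRNAs under 600 nt the median ratio was 1.61 and the highest 26.2, and the rank of Atp5e among these was not computed. Low and high values occurred in both groups, and the log2 fold change was -0.03 (interval -0.79 to 0.73). Atp5e and the other members with a wide spread are named because of their values.

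The peripheral stalk subunits Atp5o, Atp5h, Atp5pb and Atp5j, which hold the head in place, had log2 fold changes of -0.03 to 0.00 and a highest library 1.17 to 1.40 times the lowest. Atp5j overlaps Gabpa on the opposite strand (up to 4432 counts in a library), Atp5pb overlaps Wdr77 and Cox4i1 overlaps Emc8 in the same way, and whether the counting used strand is not given in the sources used here. The 5 small membrane subunits Atp5mpl, Atp5k, Atp5j2, Atp5md and Atp5l had log2 fold changes of -0.05 to 0.19 and wider spreads, of 1.45 to 1.94 times. Atp5k, which helps ATP synthase dimers form, was at 27.5, 37.7 and 33.3 FPKM in mAC_Mito and 18.4, 27.9 and 39.7 FPKM in mAC.

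The 3 subunit c genes differed in level and in spread, although their last 75 codons encode the same residues. Atp5g2 was at 69.4, 81.6 and 88.1 FPKM in mAC_Mito and 53.0, 81.9 and 91.1 FPKM in mAC. Atp5g3 was at 48.6, 82.1 and 63.7 FPKM in mAC_Mito and 39.7, 53.3 and 90.7 FPKM in mAC, with mAC_Mito 2 and mAC 3 as the highest libraries, as for Atp5e and Cox7a2. Atp5g1 was at 16.2, 17.8 and 18.6 FPKM in mAC_Mito and 14.5, 17.9 and 22.1 FPKM in mAC. Of their summed FPKM, Atp5g2 held 49.5% in mAC_Mito and 49.2% in mAC, Atp5g3 39.6% in mAC_Mito and 38.8% in mAC, and Atp5g1 10.9% in mAC_Mito and 12.0% in mAC. The share of Atp5g1 depends on the length used, since its principal annotated mRNA has 4715 nt and its shortest coding transcript 596 nt.

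The order of levels also depends on length. The gene model implied by counts and FPKM was 1.15 to 13.6 times as long as the principal mRNA (median 1.89 times), so FPKM sets some members too low. Per kilobase of principal mRNA, Atp5b came first and Cox6a1 second, where FPKM put Cox6a1 first and Atp5b second. Atp5l, ranked 41 by FPKM, came to rank 7, Cox6c moved to 13 (38 by FPKM) and Atp5md to 15 (39 by FPKM). The tissue isoforms Cox4i2, Cox6a2, Cox6b2, Cox7a1 and Cox8b stayed at the low end on both scales, at ranks 42 to 47 with Cox6c2 by FPKM.

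The members varied together over the libraries in a pattern that did not follow the groups. Of the 47 members, 39 (83%) were lowest in mAC 1 and 29 (61.7%) were highest in mAC 3, 27 of them both, whereas 24% and 20.2% of all genes tested were lowest in mAC 1 and highest in mAC 3. The median deviation of the members from their own mean was -0.03, 0.04 and 0.04 on the log2 CPM scale in mAC_Mito 1, 2 and 3 and -0.27, 0.05 and 0.18 in mAC 1, 2 and 3. In complex V 16 of 17 members were lowest in mAC 1 and 13 highest in mAC 3, and in complex III 8 of 9 were lowest in mAC 1 and 7 highest in mAC 3. The exceptions included the pseudogene Cox6c2, the muscle isoform Cox6a2 and Uqcrb.

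**Figure D3:**
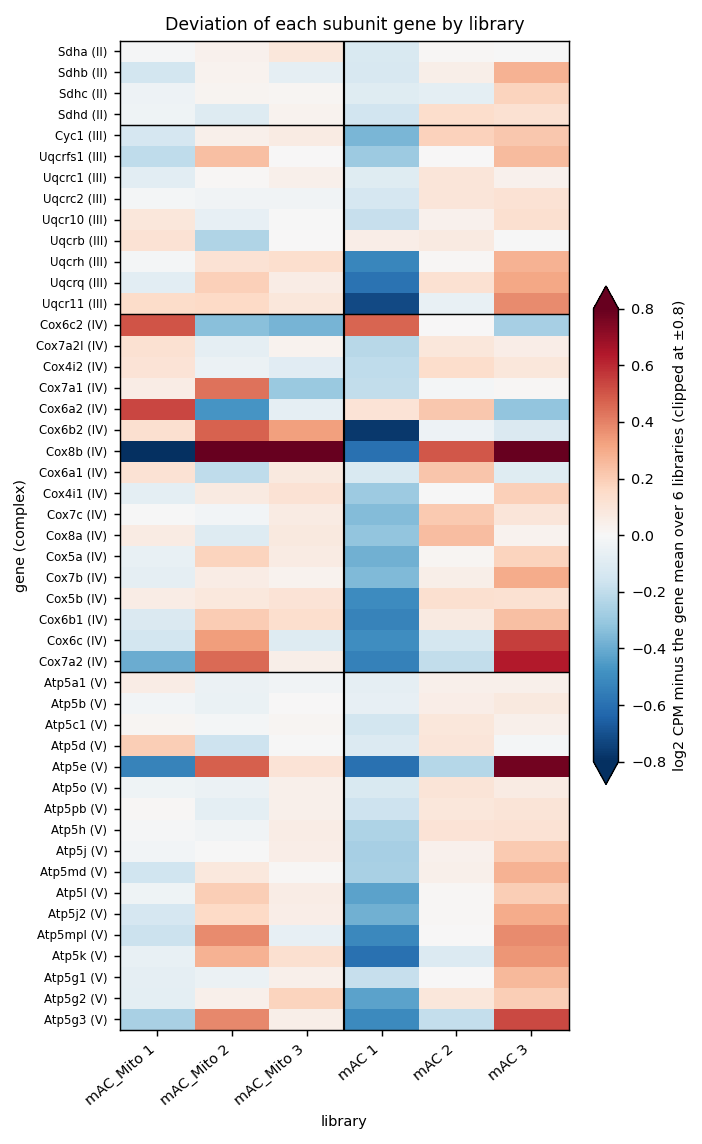
Log2 CPM of each subunit gene minus its own mean over the 6 libraries (rows, ordered by complex and role; columns, the 3 mAC_Mito libraries left of the line and the 3 mAC libraries right of it). Blue marks a value below the mean of the gene and red one above it. Most rows are blue in mAC 1 and red in mAC 3, and Atp5e, Cox7a2, Cox6c and Atp5g3 are also red in mAC_Mito 2.

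The lean of the members between the groups depended on mAC 1 and mAC 3. Without mAC 1 the median log2 fold change of the members was -0.09 with 5 of 47 above 0, and the lowest unadjusted p was 0.0648, for Sdhb (edgeR). Without mAC 3 the median was 0.09 with 37 above 0, and Uqcr11, Atp5k and Atp5g3 had an unadjusted p of 0.0231, 0.0261 and 0.0439 (edgeR), none of which passed adjustment (adjusted p = 0.931). Leaving out any other library gave medians of 0.01 to 0.03.

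Nuclear complex I and cytosolic ribosomal protein genes were likewise lowest in mAC 1 and highest in mAC 3. The order of the libraries between these ends differed. For 36 nuclear subunits of complex I the median deviations were -0.06, 0.09 and 0.04 in mAC_Mito and -0.28, 0.04 and 0.20 in mAC, and for 81 cytosolic ribosomal protein genes -0.08, 0.11 and 0.04 in mAC_Mito and -0.35, 0.02 and 0.22 in mAC. Of the complex I genes 83.3% were lowest in mAC 1 and 72.2% highest in mAC 3, and of the ribosomal protein genes 87.7% and 69.1%. The pattern was thus shared with some nuclear genes outside complexes II to V, among them the complex III and IV assembly genes by their medians. Other nuclear sets did not share it. Regulators of respiratory genes had a median deviation of 0.17 in mAC 1 and -0.08 in mAC 3. For complex V assembly or inhibitor genes these were 0.09 in mAC 1 and -0.07 in mAC 3. The 6 subunits of complexes III, IV and V that the mitochondrial genome encodes ran the other way. Their median deviations were 0.42, -0.60 and -0.32 in mAC_Mito and 0.88, 0.14 and -0.48 in mAC, so that mAC 1, the lowest library for the nuclear subunits, was the highest for their mitochondrial partners, and mAC 3 was low for them.

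**Figure D4:**
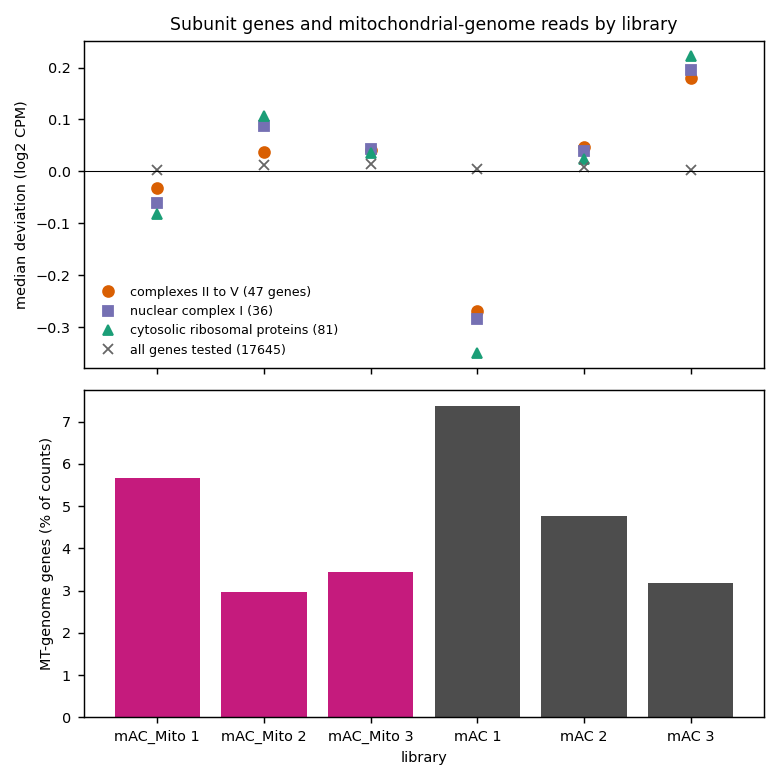
Top, median deviation (log2 CPM, each gene against its own mean) of the 47 subunit genes, 36 nuclear complex I genes, 81 cytosolic ribosomal protein genes and all 17645 genes tested, by library. Bottom, share of counts from genes of the mitochondrial genome, which was 7.38% in mAC 1 and 3.18% in mAC 3, the libraries in which the nuclear subunits were lowest and highest.

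The median spread was wider in the classes of members with shorter messenger RNAs, though single members departed from this, such as Uqcr10 (434 nt, ratio of highest to lowest library 1.245) and Uqcrq (1521 nt, ratio 1.87). The principal mRNAs of the members are short, with a median of 732 nt, and 30 of 46 are under 1000 nt. Members with at least 5 CPM and an mRNA under 600 nt (13 genes) had a median ratio of highest to lowest library of 1.55, those of 600 nt to under 1000 nt (14) 1.51, those of 1000 nt to under 2000 nt (12) 1.248 and those of 2000 nt or more (4) 1.19. Among all genes with at least 20 CPM, members included, the medians for the same classes were 1.61 (83 genes), 1.43 (334), 1.29 (1382) and 1.27 (5419). In mAC 1 and mAC 3 the 83 genes with the shortest mRNAs had median deviations of -0.36 and 0.23, and the 5419 genes with the longest 0.02 and -0.02. The part of mRNA length in the library pattern of the members was not tested.

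**Figure D5:**
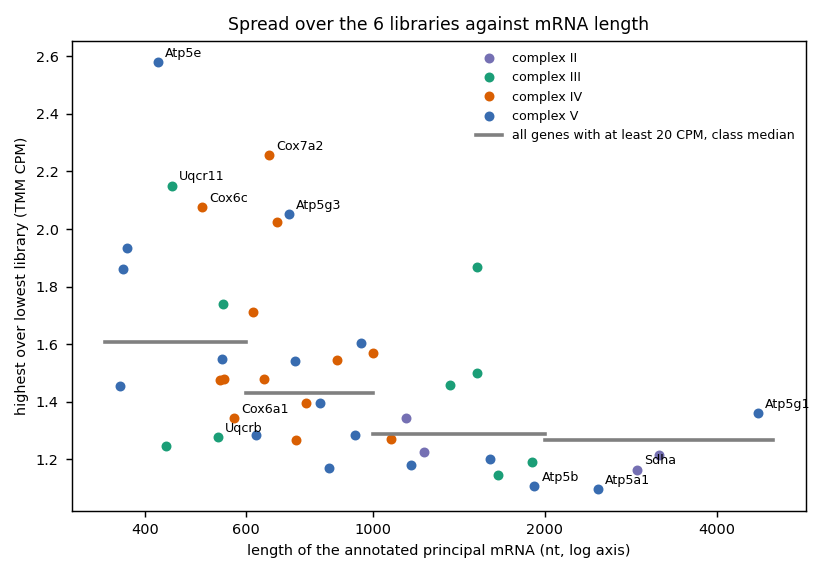
Ratio of the highest to the lowest library (TMM-scaled CPM) against the length of the principal annotated mRNA (log axis) for the members with at least 5 CPM, coloured by complex, with grey lines at the median of all genes of at least 20 CPM in each length class. Atp5e, Cox7a2, Uqcr11, Cox6c, Atp5g3 and Cox6a2 exceed a ratio of 2, whereas Atp5b and Atp5a1 lie at 1.11 and 1.10.

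Genes that assemble or accompany the complexes were also compared, leaving out the members. Of 25 tested complex IV assembly genes none passed the adjusted threshold, 1 had an unadjusted p under 0.05 and was lower in mAC_Mito (1.09% of all genes tested), and the groups did not overlap for 1 gene that was higher and 3 that were lower in mAC_Mito (3.93% and 4.38% of all genes tested). The most abundant of them, Higd2a, averaged 66.1 ± 9.40 FPKM in mAC_Mito and 60.8 ± 8.11 FPKM in mAC. None of the 4 complex II, 6 complex III and 4 complex V assembly or inhibitor genes had an unadjusted p under 0.05. Ndufa4, which was long assigned to complex I and is now counted with complex IV, averaged 90.8 ± 9.23 FPKM in mAC_Mito and 88.5 ± 18.3 FPKM in mAC. Of 11 transcription regulators of respiratory genes none passed, and the most abundant, Hif1a, the oxygen-regulated factor, averaged 84.8 ± 3.53 FPKM in mAC_Mito and 95.2 ± 8.91 FPKM in mAC. All 6 mitochondrial-genome partners had log2 fold changes below 0 (median -0.38), and their lowest unadjusted p was 0.243 (edgeR).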

How the data were processed

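RNA of 6 chondrocyte libraries was analysed from 1 deposited table. Per the file headers, the authors deposited raw, unnormalized read counts per gene and their own FPKM values. Bowtie 0.12.2, HISAT2 2.0, StringTie 1.3.0 and mm8 are named without roles in the submitters' processing notes; 44 of 47 members had the coordinates of GENCODE M21 on GRCm38, used here.

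Counts were tested with edgeR 4.0.16 (quasi-likelihood, TMM, filterByExpr with a minimum count of 10 and a total of 15, R 4.3.3), two-sided, with Benjamini-Hochberg adjustment over 17645 genes and a threshold of 0.05. Intervals and standard errors follow from the F statistic. Alternatives were DESeq2 1.42.0, limma 3.58.1 on log2(FPKM + 1) or with 0.1, other scalings and filters, a replicate block and leaving out each library. The fit was tested on simulated counts. Deviations are log2 CPM (prior count 2) minus the mean of the gene. No 2 libraries agreed within sampling noise. Named genes were, by rule, the isoform families, the 2 most abundant members of each complex, the 2 highest and 2 lowest log2 fold changes and the most abundant gene of each list; others were named after their values were seen. Members and lists were chosen with earlier results of these data known.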

Additional observations from a re-analysis of the deposited data

How the results depend on the processing

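No alternative called a subunit gene. Over all genes tested the count past the threshold was 2; it was 4 with DESeq2, 0 without a filter, 0 with a filter of 5 FPKM in 3 libraries, 1 with limma on log2(FPKM + 1), and 0 to 4 with 1 library left out. The median log2 fold change of the members was -0.09 to 0.09 with 1 library left out. Of the 23 named genes none passed under any of the 342 values. All 342 moved by less than the spread between libraries, which leaving out 1 of 3 libraries can hardly exceed. The log2 fold change still ran from -0.82 to 0.29 for Cox8b and from -0.21 to 0.44 for Cox7a2. Among the 23 genes, 18 changed sign under at least 1 alternative, and Atp5b, Cox6b2, Sdha, Sdhb and Sdhd kept theirs. For Cox6b2 the unadjusted p ran between 0.033 and 0.145 (edgeR, DESeq2 or limma). Isoform shares depend on the length behind the level. From CPM they were 2.92% in mAC_Mito and 3.08% in mAC for Cox4i2, 1.99% in mAC_Mito and 1.43% in mAC for Cox6b2, 0.298% in mAC_Mito and 0.278% in mAC for Cox7a1, 24.1% in mAC_Mito and 26.1% in mAC for Atp5g1, and 37.1% in mAC_Mito and 36.5% in mAC for Atp5g2. From CPM per kilobase of mRNA, an alternative chosen after seeing the data, they were 3.04% in mAC_Mito and 3.21% in mAC for Cox4i2, 2.10% in mAC_Mito and 1.51% in mAC for Cox6b2, 4.65% in mAC_Mito and 5.15% in mAC for Atp5g1, 49.2% in mAC_Mito and 48.5% in mAC for Atp5g3, and 2.03% in mAC for Cox6a2. With the replicate number as a block the median of the members was 0.02, 2 genes passed the threshold and the unadjusted p of Cox6b2 was 0.0448 (edgeR). The correlations of same-numbered libraries, each gene centred within its group, were 0.124, -0.060 and -0.012. Not every library correlated best with its own number. With 3 libraries per group these values cannot decide whether the samples were paired, which the labels do not state.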
